A study of Mus musculus with 2 samples.

Results

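The genes of the cytosolic ribosomal proteins were followed across lung endothelial cells of an aKO and an aWT mouse library. Members were the features whose symbol reads Rpl or Rps followed by a number, with an optional letter or digit after it, or Rpsa, leaving out copies named as pseudogenes. The rule found 80 genes among the 32286 features counted in each library. Of these, 77 were measured, with at least 1000 unique molecular identifiers (UMIs) over both libraries, 32 of them in the small and 45 in the large subunit. The other 3, Rpl3l, Rpl10l and Rpl39l, were at or near 0 and are described with the paralogs. Ribosomal proteins with other names, such as Rplp0 and Fau, fall outside the rule and are given beside the members.

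The series profiled single lung cells with the 10x Genomics 3' chemistry, which reads transcripts at their 3' end and counts each captured molecule once by its UMI. Its title names a mouse model of hereditary hemorrhagic telangiectasia 2, a disorder of vessel malformation. There was 1 aKO library and 1 aWT library, both from lungs of C57BL/6J mice aged 10 to 12 weeks, digested with Dispase and DNase I. In both groups a Cre recombinase under the VE-cadherin promoter, active in endothelial cells, marked cells with tdTomato, and tdTomato-positive cells were sorted. The labels give no more of the genotype than aKO and aWT, so which gene was deleted is not stated in them, nor how many animals were pooled. Acvrl1, the gene of the endothelial BMP receptor tied to this disorder, was at 489.6 CPM in aKO and 1047 CPM in aWT. These values are over all endothelial-like cells, with CPM the UMIs of a gene per 1000000 UMIs of the same cells. Within each endothelial class described below the libraries lay closer together by ratio. Acvrl1 was at 617 and 1121 CPM in general capillary-like, 779 and 1566 CPM in aerocyte-like and 508 and 639 CPM in arterial-like cells, aKO first. In venous-like cells it was at 479 and 672 CPM, and in lymphatic-like cells at 98.3 and 163 CPM. Counting at the 3' end says nothing of which exons its transcripts held.

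A ribosome is built from ribosomal RNA and a single copy of most of the proteins encoded by these genes, so cells make the proteins in matched amounts. Their messages belong to the class that starts with a C followed by a run of pyrimidines, the terminal oligopyrimidine tract. Through that tract the kinase complex mTORC1 and the RNA-binding protein LARP1 set how strongly the messages are translated and how stable they are when translation is held back. Endothelial cells of the lung fall into general capillary cells, aerocytes (the capillary cells spread over gas-exchange surfaces), arterial, venous and lymphatic cells. Levels of ribosomal protein messages differ between cell types and with growth.

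Runs of C and T near the start can be read in the promoters of the members the results turn on. The windows shown run from 40 bases before to 20 bases after the annotated start, and the capitals mark the longest run of C and T between 30 bases before and 20 bases after it. Rpl35 (chr2:39005112-39005171, minus strand), Rps28 (chr17:33824543-33824602, minus strand), Rps18 (chr17:33955646-33955705, minus strand) and Rpl39 (chrX:37085203-37085262, minus strand) had the 4 largest aKO over aWT ratios over all endothelial-like cells. Rps6 (chr4:86857348-86857407, minus strand) and Rpl5 (chr5:107900488-107900547, plus strand) are shown because their ratio changed side of 0 between endothelial classes. Rps15 (chr10:80292391-80292450, plus strand) and Rpl27 (chr11:101442205-101442264, plus strand) were among the members with the smallest ratios. Each window spans the promoter and the start of the first exon, in RefSeq sequence of the GRCm38.p6 (mm10) build, written in the direction of the gene.
Rpl35: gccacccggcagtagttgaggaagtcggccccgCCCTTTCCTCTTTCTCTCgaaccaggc
Rps28: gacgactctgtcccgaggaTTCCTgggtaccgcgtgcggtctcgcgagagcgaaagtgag
Rps18: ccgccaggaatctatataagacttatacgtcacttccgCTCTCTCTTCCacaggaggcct
Rpl39: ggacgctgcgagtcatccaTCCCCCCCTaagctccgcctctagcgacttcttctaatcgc
Rps6: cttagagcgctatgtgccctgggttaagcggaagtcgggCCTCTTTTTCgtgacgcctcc
Rpl5: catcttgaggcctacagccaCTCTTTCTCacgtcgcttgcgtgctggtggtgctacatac
Rps15: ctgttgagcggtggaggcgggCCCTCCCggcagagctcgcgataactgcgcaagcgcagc
Rpl27: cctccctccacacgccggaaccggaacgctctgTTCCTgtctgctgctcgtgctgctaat
The longest run had 18 letters in Rpl35, 11 in Rps18, 10 in Rps6, 9 in Rpl39, 9 in Rpl5, 7 in Rps15 and 5 in both Rps28 and Rpl27. The annotated transcript begins at letter 41 of each window. The runs of Rpl35 (letters 34 to 51), Rps18 (39 to 49) and Rps6 (40 to 49) span that start. Those of Rpl39, Rpl5, Rps15, Rps28 and Rpl27 end before it, so they are not the terminal tract of a message that begins at this RefSeq start. Annotations differ in the start, however. The GENCODE M21 spans of Rpl5 (from base 107900502) and Rpl39 (up to base 37085402, minus strand) begin upstream of their runs. On the minus strand, those of Rpl35 (up to base 39005624), Rps18 (33956001) and Rps6 (86857412) begin upstream of the whole window. From such starts their runs would not be terminal either. Those of Rps15 (from base 80292453) and Rpl27 (from base 101442298) begin after the window. Where the runs of these genes lie relative to the message is thus not settled here.

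Over the whole promoter table of 27025 genes, 61 of the 80 members had an entry. A run of at least 8 C and T letters between 30 bases before and 20 after the start, on the gene's strand, was found in 31 of the 61 members (50.8%) and in 6182 of all promoters (22.9%). CCGGAAG, the letters that ETS factors such as GABP bind, was searched on both strands from 250 bases before to 50 after the start. It stood in 25 members (41.0%) and in 9.93% of all promoters. AAGATGGC, the core that YY1 binds, was searched in the same window and stood in 6 members (9.84%) and in 3.19% of all promoters. A match to CCGGAAG on the opposite strand can share letters with a run of C and T. These matches describe letters only and are no evidence of a bound factor.

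The filtered matrices held 10415 aKO cells with a median of 5743 UMIs and 14864 aWT cells with a median of 3913 UMIs. Cells were placed in classes by their UMIs of marker genes, none of which is a ribosomal protein gene. The 10 leading genes of each class held 3 to 5 of its own markers and 0 of another class in each library. Markers used to place the cells, such as Kit and Reln, are among these leading genes. Both counts thus follow in part from the assignment and are no independent check of the class names. Among endothelial-like cells the share of all cells in the aKO library, and then in the aWT library, was 36.7% and 56.7% for general capillary-like, 14.3% and 13.9% for aerocyte-like, 6.11% and 5.69% for arterial-like, 12.0% and 9.76% for venous-like and 16.2% and 3.42% for lymphatic-like cells. Xist, expressed from the inactive X chromosome of females, was at 723 CPM in aKO and 3.58 CPM in aWT, and the Y-linked Ddx3y at 0.0316 CPM in aKO and 107 CPM in aWT, so sex and group cannot be told apart in any value below. The libraries shared 48 cell barcodes. Neither group had a second library, so no replicate error could be given and nothing was tested between groups, and every interval given covers counting error only.

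Ribosomal protein genes held a larger share of the UMIs in aKO than in aWT cells of each endothelial class. In arterial-like cells they made up 10.7% of UMIs in 636 aKO cells and 6.34% in 846 aWT cells, a ratio of 1.68. In venous-like cells the share was 8.70% in 1245 aKO cells and 5.84% in 1450 aWT cells, a ratio of 1.49. Aerocyte-like cells had the lowest shares, at 3.93% in 1493 aKO cells and 2.67% in 2061 aWT cells, with nearly the same ratio of 1.47. The difference was smaller in lymphatic-like cells, at 7.44% in 1684 aKO cells and 5.99% in 508 aWT cells. The share in general capillary-like cells was 4.67% in 3822 aKO cells and 3.77% in 8428 aWT cells. The ratio was 1.24 in both of these classes. The exact binomial 95% intervals were narrow, for instance 10.6% to 10.7% in aKO and 6.32% to 6.37% in aWT arterial-like cells, with at least 2854345 UMIs behind each class and library.

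Cells of 1 class spread widely around these shares. In arterial-like cells the quartiles of the cells were 6.95% and 13.3% in aKO and 3.67% and 7.48% in aWT, with medians of 9.67% and 5.39%. In aerocyte-like cells the medians were 3.36% in aKO and 2.51% in aWT. In venous-like cells they were 7.84% in aKO and 5.47% in aWT, and in lymphatic-like cells 6.45% in aKO and 5.19% in aWT. In general capillary-like cells the medians, 3.74% in aKO and 3.52% in aWT, lay closer together than the summed shares did. The aKO cells of that class were also more spread out, with quartiles of 2.20% and 5.47%, against 2.43% and 4.74% in aWT.

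**Figure D1:**
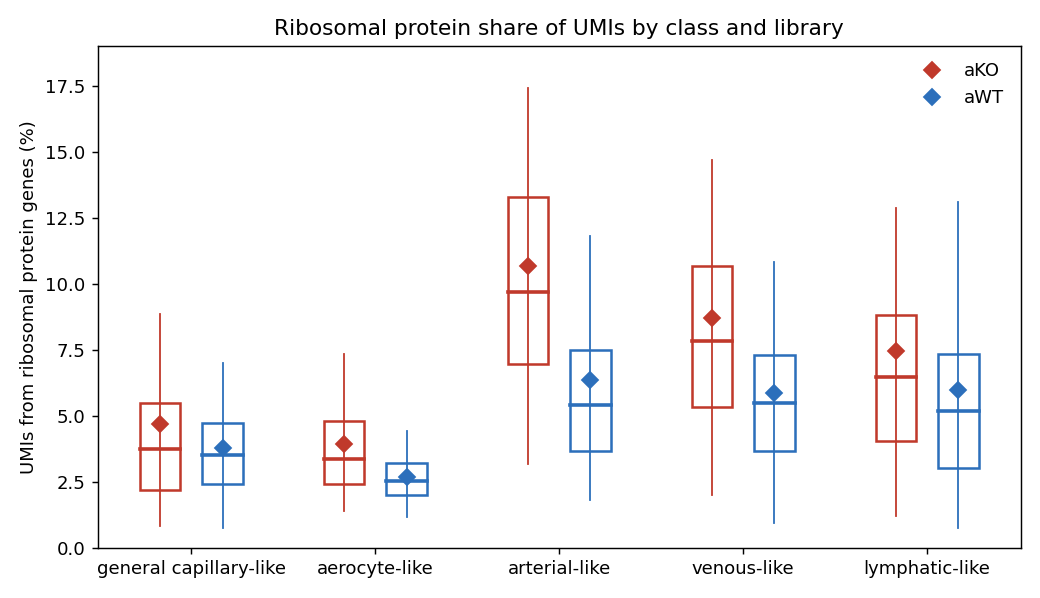
Share of each cell's UMIs that come from ribosomal protein genes (%), by endothelial class, with aKO left of aWT. Boxes span the quartiles of the cells with the median as a line, thin lines run from the 5th to the 95th percentile, and diamonds give the share of the summed UMIs; the widest gap is in arterial-like cells, with medians of 9.67% in aKO and 5.39% in aWT.

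Within each library the ratio of the highest to the lowest class share was larger than the ratio of aKO to aWT in any class. In aKO the summed share ran from 3.93% in aerocyte-like and 4.67% in general capillary-like cells through 7.44% in lymphatic-like and 8.70% in venous-like to 10.7% in arterial-like cells. In aWT both capillary classes were also lowest and arterial-like cells highest, but venous-like (5.84%) and lymphatic-like cells (5.99%) stood close together and in the other order. The median member level followed, at 511, 616, 985, 1172 and 1451 CPM for these aKO classes in the order given. The aWT medians in the same order of classes were 341, 494, 771, 749 and 807 CPM. The classes of a library share its sequencing run and its handling, so these levels are not independent of each other.

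Gene by gene, all 77 measured members had a log2 ratio of aKO over aWT above 0 when all endothelial-like cells were summed, between 0.088 and 1.25 with a median of 0.68. Ratios were taken after adding 5 CPM to each side. The median of all 4585 features with at least 50 CPM in 1 library was 0.070. By size, 49 of the 77 members passed 1.5-fold toward aKO and 0 toward aWT, while 13.1% of all such features were higher and 8.03% lower. Among the 369 features with at least 500 CPM, the level at which most members lie, 24.7% were higher and 25.2% lower. Members are among these features and made up 45 of the 91 that were higher. Ribosomal protein genes are short, with a median span of 3289 bases against 39184 for all features at 50 CPM, and other genes under 10 kb had a median log2 ratio of 0.30. The summed values also carry the class make-up of each library, as lymphatic-like cells were 16.2% of aKO and 3.42% of aWT cells. Weighting the 5 classes equally brought the median of the members to 0.53 and the count to 32. The ratios of single genes over all endothelial-like cells given below were not weighted in this way.

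The classes ranked as they did by the ratio of their shares. Arterial-like cells had a median of 0.75, with 57 of 77 members at least 1.5-fold higher in aKO, where 13.3% of all features were higher and 11.7% lower. Venous-like cells had a median of 0.55 and 34 members higher, against 16.3% of features higher and 11.7% lower. Aerocyte-like cells had a median of 0.52 and also 34 members higher, against 10.7% of features higher and 5.84% lower. Lymphatic-like cells had a median of 0.32 and 10 of 76 members past the 50 CPM minimum higher, against 5.14% of features higher and 4.47% lower. General capillary-like cells had a median of 0.29 and 11 members higher, against 11.4% of features higher and 6.78% lower, so the 11 members were a share close to that of all features. No member reached 1.5-fold lower in any of the 5 classes. By sign, 10 of the 77 members lay below 0 in general capillary-like and 9 in lymphatic-like cells. In aerocyte-like and in venous-like cells 1 did, and in arterial-like cells 0. The median of the other short genes was 0.35 in arterial-like, 0.43 in venous-like, 0.16 in aerocyte-like and 0.17 in lymphatic-like cells. It was 0.28 in general capillary-like cells, beside the members' 0.29, and the part that gene length has in the ratios was not tested.

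**Figure D2:**
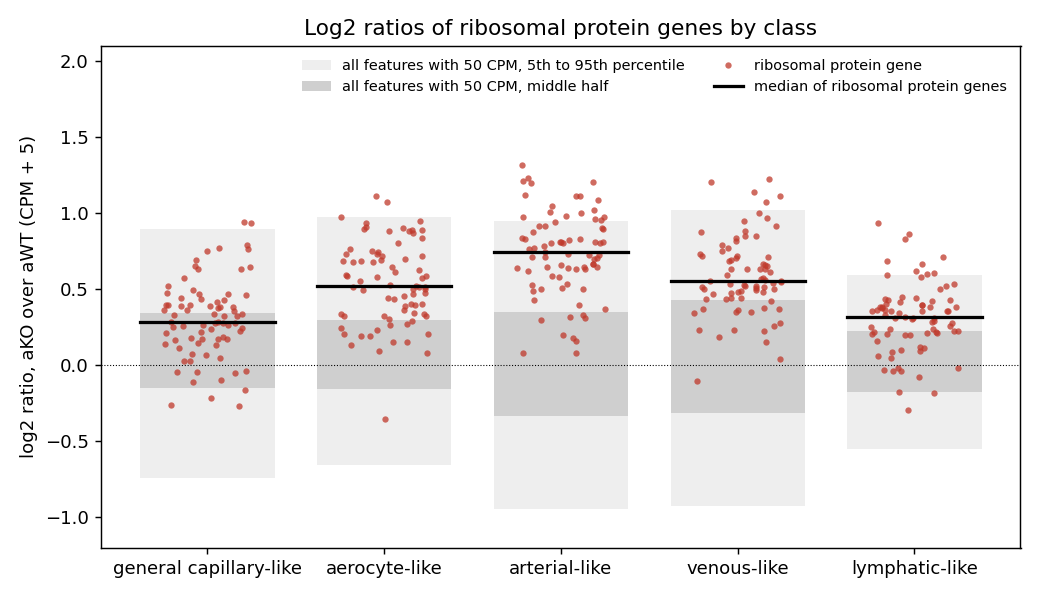
Log2 ratio of aKO over aWT (after adding 5 CPM) for each measured ribosomal protein gene, by endothelial class. Dots are genes, black lines their median, and grey bands the quartiles and the 5th to 95th percentile of all features with at least 50 CPM; the medians run from 0.29 in general capillary-like to 0.75 in arterial-like cells.

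The members with the largest ratios came from both subunits. Rpl35, a large subunit protein at the rim of the tunnel through which the new peptide leaves, was at 612 CPM in aKO and 255 CPM in aWT over all endothelial-like cells. Its log2 ratio was 1.25 (1.23 to 1.29, interval for counting error). By class it was at 975 CPM in aKO and 389 CPM in aWT arterial-like, 829 and 357 CPM in venous-like, 639 and 350.0 CPM in lymphatic-like, 437 and 226 CPM in general capillary-like and 369 and 173 CPM in aerocyte-like cells. Rpl35 was thus more than 1.5-fold higher in aKO in each of the 5 classes. Rps28, a small subunit protein beside the path of the message, was at 882 CPM in aKO and 369 CPM in aWT, a log2 ratio of 1.24 (1.23 to 1.28). It was farthest apart in arterial-like cells, at 1635 CPM in aKO and 693 CPM in aWT, and nearest in lymphatic-like cells, at 1128 CPM in aKO and 738 CPM in aWT.

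Rps18, a protein of the small subunit head, was at 446 CPM in aKO and 201 CPM in aWT, a log2 ratio of 1.13, and it was the member with the largest ratio in lymphatic-like cells, at 487 CPM in aKO and 252 CPM in aWT (0.94). Rpl39, a small protein of the tunnel wall, was at 961 CPM in aKO and 446 CPM in aWT (1.10). Rpl10, a large subunit protein that joins late and near the site where subunits meet, was at 839.9 CPM in aKO and 395 CPM in aWT (1.08). Rpl29, of the large subunit, was at 662 CPM in aKO and 334 CPM in aWT (0.98).

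Rpsa, a small subunit protein that also serves as a laminin receptor precursor, was at 908 CPM in aKO and 439 CPM in aWT over all endothelial-like cells (1.04). Its place among the members depended on the class. In venous-like cells it had the largest ratio of all members, at 1390.4 CPM in aKO and 593 CPM in aWT, a log2 ratio of 1.22 (1.19 to 1.27). In lymphatic-like cells it was at 1100.1 CPM in aKO and 616 CPM in aWT (0.83), in arterial-like cells at 1315.5 CPM in aKO and 667 CPM in aWT (0.97) and in aerocyte-like cells at 485 CPM in aKO and 291 CPM in aWT (0.73). In general capillary-like cells the values were 499 CPM in aKO and 395 CPM in aWT, a ratio of 0.34 that lay near the median of the members there. Within aWT, Rpsa took nearly the same share of the member UMIs in each class, 1.01% to 1.09%. Within aKO it took from 1.07% in general capillary-like to 1.60% in venous-like cells. Rps2, named after its values were seen, is a small subunit protein at the entry of the message path. Like Rpsa, it had a larger ratio in venous-like cells (0.88, 1223 CPM in aKO and 662 CPM in aWT) than in general capillary-like cells (0.030, 394 CPM in aKO and 386 CPM in aWT). In the other classes it differed from Rpsa. Its ratio was 0.15 in aerocyte-like, 0.65 in arterial-like and 0.35 in lymphatic-like cells, where the member medians were 0.52, 0.75 and 0.32. Within aWT its share of the member UMIs was less even, 1.02% to 1.29%.

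**Figure D3:**
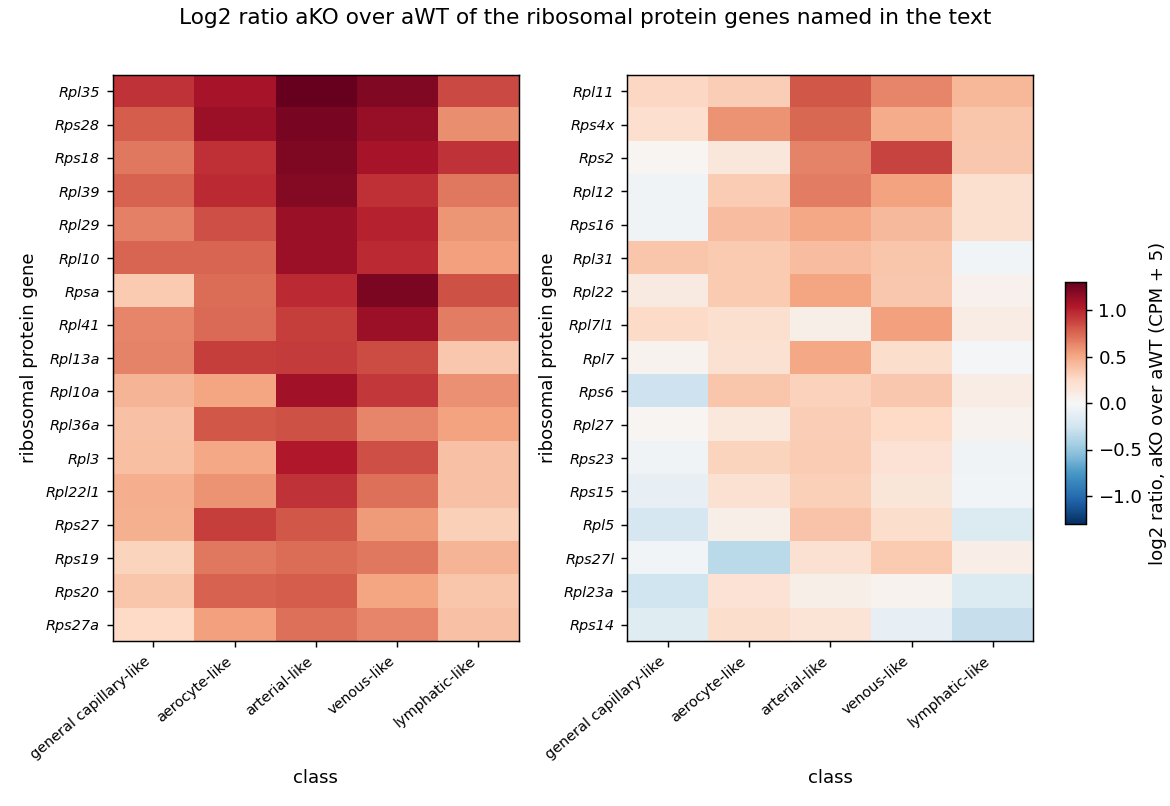
Log2 ratio of aKO over aWT (after adding 5 CPM) of the 34 measured ribosomal protein genes named in the text in the 5 endothelial classes. Genes are ordered by their mean over the classes, red is higher and blue lower in aKO; the arterial-like column has no gene below 0, while Rps6 is at -0.27 in general capillary-like and Rps14 at -0.30 in lymphatic-like cells.

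At the other end, Rps27l, Rps14, Rpl23a, Rps15, Rpl7l1, Rpl27 and Rpl5 were among the 8 members with the smallest ratios over all endothelial-like cells. Rps14, a small subunit protein whose loss in people causes the anaemia of a chromosome deletion syndrome, was at 1113.5 CPM in aKO and 1038 CPM in aWT (0.10). It was at 625 CPM in aKO and 531 CPM in aWT in aerocyte-like (0.23) and 1917 CPM in aKO and 1689.6 CPM in aWT in arterial-like cells (0.18). It lay below 0 in the other classes, at 1148 CPM in aKO and 1410.5 CPM in aWT in lymphatic-like cells (-0.30), 832 CPM in aKO and 931 CPM in aWT in general capillary-like (-0.16) and 1438 CPM in aKO and 1547.5 CPM in aWT in venous-like cells (-0.11). All of these differences were under 1.5-fold. Rpl23a, which sits at the tunnel exit beside Rpl35, was at 464 CPM in aKO and 426 CPM in aWT (0.12), and its ratio was -0.26 in general capillary-like and -0.18 in lymphatic-like cells. Rps15 of the small subunit was at 0.21, and Rpl27 of the large subunit at 0.26.

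Rps6, the small subunit protein that the S6 kinases phosphorylate below mTORC1, was at 499 CPM in aKO and 407 CPM in aWT over all endothelial-like cells (0.29). In general capillary-like cells it had the lowest ratio of all members, at 320.2 CPM in aKO and 387 CPM in aWT (-0.27, -0.32 to -0.23). In aerocyte-like cells it was at 241 CPM in aKO and 186 CPM in aWT (0.36), in arterial-like cells at 809.7 CPM in aKO and 658 CPM in aWT (0.30), in venous-like cells at 724 CPM in aKO and 567 CPM in aWT (0.35) and in lymphatic-like cells at 558 CPM in aKO and 523 CPM in aWT (0.092). Each of these stayed within 1.5-fold, so Rps6 was not counted as higher in any class.

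Rpl5 and Rpl11 form the particle that carries the smallest RNA of the large subunit into the ribosome and, when free, binds and inhibits Mdm2. They did not share a ratio. Rpl11 was at 951 CPM in aKO and 602 CPM in aWT (0.66) and Rpl5 at 523 CPM in aKO and 427 CPM in aWT (0.29). The gap was there in each class, at 0.81 for Rpl11 and 0.37 for Rpl5 in arterial-like, 0.64 and 0.23 in venous-like, 0.43 and -0.17 in lymphatic-like, 0.32 and 0.078 in aerocyte-like and 0.27 and -0.22 in general capillary-like cells.

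By subunit, the medians were nearly equal over all endothelial-like cells, at 0.68 for the 32 small and 0.66 for the 45 large subunit genes. In arterial-like cells they were 0.72 and 0.80, in venous-like 0.54 and 0.58, in aerocyte-like 0.56 and 0.51, in lymphatic-like 0.31 and 0.35 and in general capillary-like cells 0.25 and 0.36, small subunit first. Of the 6 small subunit proteins that line the message path, 5 were at least 1.5-fold higher over all endothelial-like cells (83.3%, median 0.73), the exception, named after its values were seen, being Rps23 at 0.31. Of the 9 large subunit proteins around the exit tunnel, 5 were higher (55.6%, median 0.59). All 77 members together had 63.6% higher, beside the 13.1% of all features, so neither small group is set apart by its count. They ran from Rpl35 at 1.25 to Rpl23a at 0.12, which are neighbours in the ribosome, and covered nearly the whole range of the members.

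Other members with known roles of their own lay between these ends. Rps19, the gene most often mutated in human Diamond-Blackfan anaemia, was at 869 CPM in aKO and 529.9 CPM in aWT (0.71) and Rps20 at 1334 CPM in aKO and 816 CPM in aWT (0.71). Rpl13a, known in human cells for silencing inflammatory messages once released from the ribosome, was at 920.0 CPM in aKO and 494 CPM in aWT (0.89). Rpl41, which encodes a very short peptide, was at 1183 CPM in aKO and 602 CPM in aWT (0.97) and was farthest apart in venous-like cells, at 1635 CPM in aKO and 753 CPM in aWT. Rpl10a, described in mouse as marking ribosomes that translate selected messages, was at 505 CPM in aKO and 262 CPM in aWT (0.93). Rps27a, made as a fusion with ubiquitin, was at 1065 CPM in aKO and 673 CPM in aWT (0.66).

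The 4 X-linked members, Rps4x, Rpl10, Rpl36a and Rpl39, had a median log2 ratio of 0.93 over all endothelial-like cells, against 0.66 for the 73 autosomal members. In arterial-like cells these medians were 0.97 and 0.73, and in general capillary-like cells 0.57 and 0.28. Rpl39 and Rpl10 had the larger ratios of the 4. Rpl36a was at 478 CPM in aKO and 277 CPM in aWT (0.78) and Rps4x at 1185 CPM in aKO and 756 CPM in aWT (0.65), and all 4 lay within the range of the autosomal members, 0.088 to 1.25. Xist and Ddx3y set the libraries apart by sex, as given above, and the part of sex in these values was not tested. Near-identical copies can share reads with Rpl10, Rpl36a and others. Rpl10-ps3 was counted at 9.11 CPM in aKO and 5.85 CPM in aWT, and Rpl36al at 259 CPM in aKO and 163 CPM in aWT, so the split between such copies and the members is uncertain.

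Of the listed paralogs of other members, 3 were measured. Rpl22l1 was at 222 CPM in aKO and 124 CPM in aWT (0.82) while its parent Rpl22, known in mouse to repress it, was at 573 CPM in aKO and 427 CPM in aWT (0.42). Rpl7l1 was at 60.7 CPM in aKO and 50.8 CPM in aWT (0.24) and its parent Rpl7 at 794 CPM in aKO and 615 CPM in aWT (0.37). Rps27l, which p53 induces, was at 192 CPM in aKO and 181 CPM in aWT (0.088) and its parent Rps27 at 886 CPM in aKO and 539 CPM in aWT (0.71). Rps27l had the lowest ratio of all members in aerocyte-like cells, at 166 CPM in aKO and 213 CPM in aWT (-0.35, -0.45 to -0.27), the class in which Rps27 was at 518 CPM in aKO and 275 CPM in aWT (0.90). In venous-like cells Rps27l was at 242 CPM in aKO and 189 CPM in aWT (0.34). Rpl3l, the striated muscle form of Rpl3, had 2 UMIs in aKO and 7 in aWT, and Rpl39l, a testis form, 7 in aKO, all in lymphatic-like cells, and 3 in aWT. Rpl10l, another testis form, had 0 UMIs in both libraries, which allows up to 0.0474 CPM in aKO and 0.0507 CPM in aWT (3 counts). Their parents Rpl3 (697 CPM in aKO and 377 CPM in aWT, 0.88), Rpl39 and Rpl10 were all well detected.

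Members also differed in how their share of the member UMIs moved between classes within a library. Rpl7l1 held 0.149% in aKO and 0.188% in aWT aerocyte-like cells, and 0.0579% in aKO and 0.0917% in aWT arterial-like cells. Rps27l held 0.422% in aKO and 0.798% in aWT aerocyte-like cells, and 0.205% and 0.298% in arterial-like cells. Rpl31, named after its values were seen, held 0.744% and 0.862% in aerocyte-like cells, and 0.371% and 0.471% in arterial-like cells, aKO first. In both libraries these genes thus took a larger part of the ribosomal protein UMIs in aerocyte-like than in arterial-like cells. The highest class share over the lowest was 2.01-fold in aKO and 1.83-fold in aWT for Rpl31. It was 1.08-fold and 1.29-fold for Rps20, and 1.36-fold and 1.49-fold for Rps6, aKO first.

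The depth and the make-up of the cells moved with these values. The median UMIs per cell were 9324.5 in aKO and 5207 in aWT arterial-like cells, and 4728.5 and 3563 in general capillary-like cells. Genes spanning at least 100 kb held 23.2% of UMIs in aKO and 26.5% in aWT endothelial-like cells, mitochondrial genes 2.08% and 2.46%, and Malat1 was at 26250.0 CPM in aKO and 39514 CPM in aWT. Gm42418, which overlaps ribosomal RNA sequence, was at 2517 CPM in aKO and 10624 CPM in aWT. The 21 dissociation stress genes summed to 9127 CPM in aKO and 15172 CPM in aWT. Cells with at least 2 UMIs of proliferation markers made up 3.22% in aKO and 0.67% in aWT, and in venous-like cells 12.7% and 1.45%. Summed markers of other cell types were at 424 and 445 CPM for alveolar epithelium, 90.3 and 34.2 CPM for mesenchyme (250.1 and 58.6 CPM in venous-like cells), 17.9 and 70.1 CPM for airway and 3.65 and 33.0 CPM for immune cells, aKO first. Apart from the values that follow, the part of these measures in the ratios was not tested.

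Among cells with a like share of long-gene UMIs the difference was smaller in some classes. Between 25% and 30% long-gene UMIs, ribosomal protein genes held 6.83% in 91 aKO and 4.83% in 241 aWT arterial-like cells, and 3.09% in 371 aKO and 2.22% in 539 aWT aerocyte-like cells. They held 6.37% in 406 aKO and 5.17% in 111 aWT lymphatic-like cells. In general capillary-like cells the values were 3.91% in 1021 aKO and 3.72% in 2652 aWT cells, and in venous-like cells 5.27% in 199 aKO and 5.14% in 408 aWT cells. In arterial-like, aerocyte-like and lymphatic-like cells aKO lay above aWT in each of the 5 ranges of long-gene share. The highest range held 14 aKO and 45 aWT arterial-like cells. The general capillary-like aKO cells lay above aWT below 30%, but from 30% to 35% the share was 2.53% in aKO and 2.73% in aWT, and from 35% it was 1.36% in both. In venous-like cells aKO lay below aWT from 35% upward, with 1.39% in 51 aKO and 1.796% in 160 aWT cells.

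The member median was 0.36 when only cells with 20 to 30% long-gene UMIs were summed, and 0.29 with only cells of 3000 to 8000 UMIs, against 0.68 for all endothelial-like cells. Depth still differed within that window, with 1085 aKO general capillary-like cells at 3000 to 5000 UMIs and 1261 at 5000 to 8000, against 3843 and 1421 in aWT. In these cells the median was 0.63 in arterial-like, 0.40 in aerocyte-like, 0.26 in venous-like, 0.21 in general capillary-like and 0.092 in lymphatic-like cells. The share of general capillary-like cells lay the other way at low depth, at 2.60% in 974 aKO and 3.38% in 2918 aWT cells under 3000 UMIs, but at 5.68% in 502 aKO and 3.32% in 246 aWT cells of 8000 UMIs or more. Lymphatic-like cells also lay the other way under 3000 UMIs, at 4.67% in 188 aKO and 4.98% in 135 aWT cells, and at 5000 to 8000 UMIs, at 6.41% in 521 aKO and 6.54% in 117 aWT cells. In arterial-like, venous-like and aerocyte-like cells aKO lay above aWT in each of the 4 depth ranges, from 1.18-fold in venous-like cells at 5000 to 8000 UMIs to 1.89-fold in arterial-like cells at 3000 to 5000 UMIs.

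**Figure D4:**
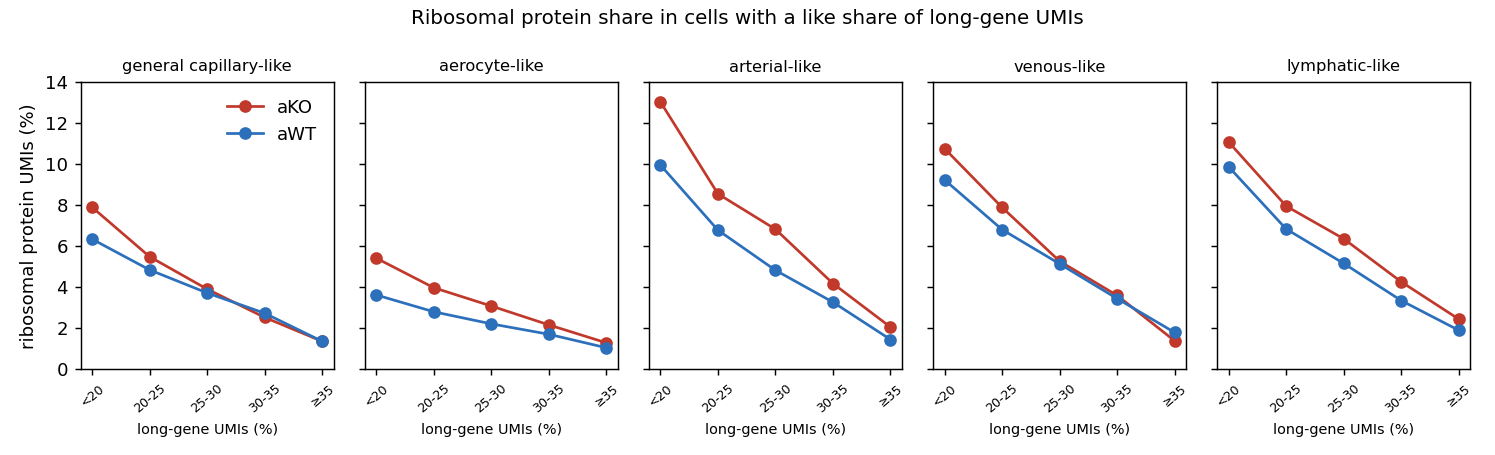
Share of UMIs from ribosomal protein genes (%) in cells grouped by their share of UMIs from genes spanning at least 100 kb, for each endothelial class, with aKO in red and aWT in blue. The share falls along the axis in each class and library; at 25 to 30% long-gene UMIs it is 6.83% in aKO and 4.83% in aWT arterial-like cells, but 5.27% and 5.14% in venous-like cells.

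A list of 10 genes that the naming rule leaves out holds ribosomal proteins and also the biogenesis factor Rsl24d1 and the binding protein Rps19bp1. Of the 10, 3 were at least 1.5-fold higher in aKO over all endothelial-like cells and 0 lower (median 0.46), where 12.1% of all features with at least 5 CPM were higher and 5.99% lower. Rplp0, the base of the stalk that recruits elongation factors, was at 941 CPM in aKO and 457 CPM in aWT (1.03). Rpl36al had 0.65, and Fau, whose product is cleaved to a small subunit protein, 0.53 (1252.5 CPM in aKO and 867 CPM in aWT).

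The elongation list holds elongation factors, many of whose messages are also of the terminal oligopyrimidine class. It also holds Eef2k, Eef1akmt1 and Eef1e1, which are not themselves elongation factors. Of its 9 genes, 4 were higher and 0 lower over all endothelial-like cells, with a median of 0.54. Eef2, which moves the ribosome along the message, was at 501 CPM in aKO and 275 CPM in aWT (0.85), Eif5a at 271 CPM in aKO and 154 CPM in aWT (0.80), Eef1a1, which delivers transfer RNA, at 2887 CPM in aKO and 1743 CPM in aWT (0.73) and Eef1b2 at 302 CPM in aKO and 185 CPM in aWT (0.69). In arterial-like and in venous-like cells 5 of the 9 were higher, where 10.7% of all features with at least 5 CPM were higher and 9.44% lower in arterial-like and 14.5% and 8.57% in venous-like cells. Among 15 messages of that class outside the members, which include 4 of these elongation factors, 5 were higher (median 0.49), led by Vim, the intermediate filament gene, at 1858 CPM in aKO and 949 CPM in aWT (0.97). Initiation factors lay lower, with 4 of 29 higher (13.8%, near the 12.1% of all features with at least 5 CPM) and 0 lower (median 0.33). The 4 were Eif4a1, the helicase that unwinds leaders (338 CPM in aKO and 185 CPM in aWT, 0.85), Eif6, which keeps subunits apart (0.81), Eif3f (0.65) and the X-linked Eif2s3x (0.62).

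Genes that build ribosomes had a lower median than the members over all endothelial-like cells. Of 30 biogenesis genes 3 were at least 1.5-fold higher over all endothelial-like cells (10.0%, against 12.1% of all features with at least 5 CPM; median 0.35). These, named after their values were seen, were Nhp2 of the pseudouridylation complex (35.7 CPM in aKO and 17.972 CPM in aWT), Ltv1 (17.998 CPM in aKO and 10.1 CPM in aWT) and Mrto4 (29.6 CPM in aKO and 17.8 CPM in aWT). Of the more abundant genes, Npm1, a nucleolar chaperone, was at 263 CPM in aKO and 179.8 CPM in aWT (0.54), Fbl, which methylates ribosomal RNA, at 57.5 CPM in aKO and 38.5 CPM in aWT (0.52), Ncl at 246 CPM in aKO and 172 CPM in aWT (0.50) and Ddx21 at 50.6 CPM in aKO and 41.6 CPM in aWT (0.26). In venous-like cells 13 of the 30 were higher (43.3%, against 14.5% of all features; median 0.53), while in arterial-like cells, with the largest member median, 3 were (10.0%, against 10.7%; median 0.28). Cycling cells made up the 12.7% of aKO venous-like cells given above, and leaving them out put the member median at 0.56 in that class. The biogenesis list was not counted again without these cells, so their part in its venous-like values was not tested.

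RNA polymerase I genes had 0 of 11 higher, where 12.1% of all features with at least 5 CPM were (median 0.22), with Taf1d at 0.33, Polr1d at 0.22 and Ubtf, which opens the ribosomal RNA genes, at 0.030. Host genes of small nucleolar RNAs had 1 of 9 higher (11.1%, median 0.14), Snhg12 at 29.4 CPM in aKO and 13.8 CPM in aWT, named after its values were seen. Gas5, itself a message of the terminal oligopyrimidine class, was at 192 CPM in aKO and 133 CPM in aWT (0.52) and Snhg8 at 67.3 CPM in aKO and 54.3 CPM in aWT (0.29). Genes of the mitochondrial ribosome, which is built apart from the cytosolic one, had 7 of 78 higher (8.97%, below the share of all features) and 0 lower (median 0.27), led by Mrpl17 at 89.7 CPM in aKO and 44.9 CPM in aWT (0.92), then Mrpl54 (0.72), Mrpl52 (0.69) and Mrpl33 (0.68). That median is close to the 0.30 of other short genes, but the 2 are not matched. The 0.30 was taken at a minimum of 50 CPM, while the mitochondrial list used 5 CPM and was not limited to short genes. The part of gene length was not tested.

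Components of the pathways known to govern ribosomal protein genes were mostly within 1.5-fold, as were most features. Of 16 measured genes of the mTOR pathway with Larp1, 2 were higher (12.5%) and 0 lower (median 0.12). Of all features with at least 5 CPM, 12.1% were higher and 5.99% lower, so the share higher was near that of all features. Above 50 CPM, the translation repressor Eif4ebp2 was at 82.4 CPM in aKO and 112 CPM in aWT (-0.42), Rictor at -0.31, Larp1 at 0.18 and Rptor at 0.15. The 2 higher, named after their values were seen, were Ddit4, an inhibitor of mTORC1, at 44.3 CPM in aKO and 24.6 CPM in aWT, and Eif4ebp1, at 42.4 CPM in aKO and 25.2 CPM in aWT. Of 7 measured genes of the Myc network 1 was higher (14.3%, also near the 12.1% of all features, median 0.012). It was Myc itself, an inducer of ribosome genes, at 18.8 CPM in aKO and 3.42 CPM in aWT (1.501), a low level, with 39.9 CPM in aKO and 14.1 CPM in aWT in arterial-like, 23.2 CPM in aKO and 2.42 CPM in aWT in venous-like, 35.7 CPM in aKO and 23.1 CPM in aWT in lymphatic-like and 5.21 CPM in aKO and 1.37 CPM in aWT in general capillary-like cells. Max was at 0.20 and the Myc antagonist Mxd4 at 0.20.

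Of 12 genes of the p53 response, Rps27l among them, 0 were higher and 1 lower (median -0.017). Of all features with at least 5 CPM, 12.1% were higher and 5.99% lower. The lower gene of the list, named after its values were seen, was Trp53inp1 at 16.6 CPM in aKO and 40.0 CPM in aWT. Trp53 was at 75.1 CPM in aKO and 49.6 CPM in aWT (0.55) and Mdm2 at 71.4 CPM in aKO and 79.7 CPM in aWT (-0.15). In aerocyte-like cells, where Rps27l was lowest among the members, the median of the list was -0.30 with 2 of 12 at least 1.5-fold lower and 0 higher, where 4.45% of all features with at least 5 CPM were lower and 10.4% higher. The 2, named after their values were seen, were Trp53inp1 (19.998 CPM in aKO and 62.5 CPM in aWT) and Eda2r (5.63 CPM in aKO and 18.5 CPM in aWT).

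**Figure D5:**
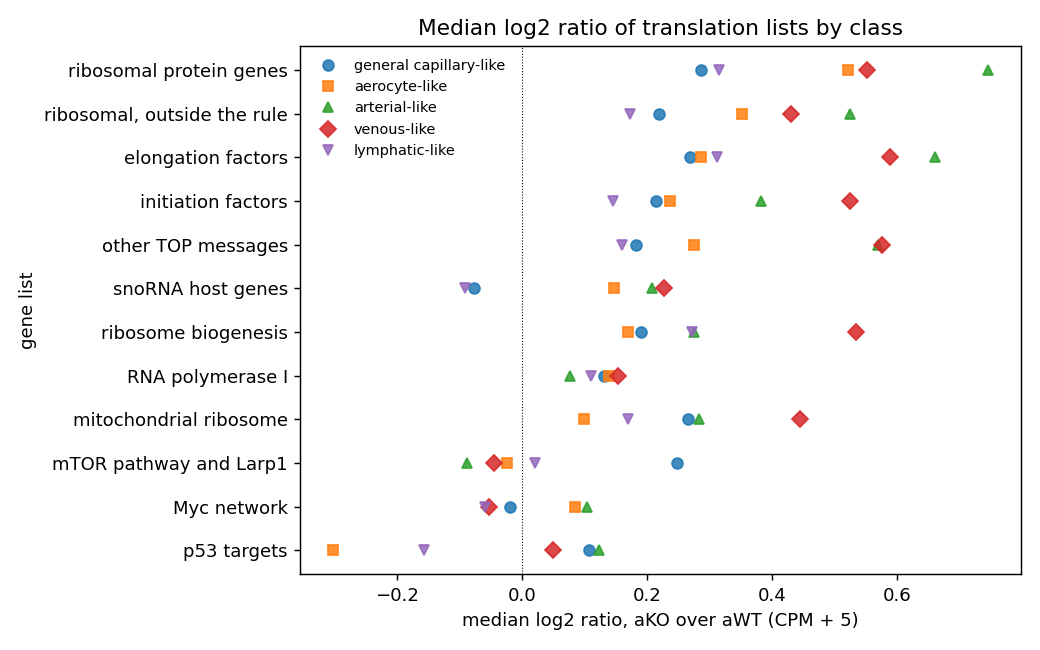
Median log2 ratio of aKO over aWT (after adding 5 CPM) for ribosomal protein genes and other translation lists, with a symbol for each endothelial class. Ribosomal protein genes lie above 0 in each class, from 0.29 to 0.75, while the RNA polymerase I, mTOR and Myc network lists lie between -0.088 and 0.25.

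Members with and without promoter matches had overlapping ratios over all endothelial-like cells. Those with a run of at least 8 C and T near the start had a median of 0.59 (30 members, 0.088 to 1.25) and those without one 0.67 (28 members, 0.21 to 1.24). With CCGGAAG the median was 0.70 (24 members) and without it 0.59 (34 members). Among the windows printed above, Rpl35 and Rps28, with the longest and a shortest run, had ratios of 1.25 and 1.24, Rps6 and Rpl5 0.29 and 0.29, and Rps15 and Rpl27, with short runs, 0.21 and 0.26.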

How the data were processed

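Each library has 1 deposited matrix of UMI counts, whole and not normalized, by feature and barcode. The libraries used the 10x 3' v3 kit, per the labels' protocols. Cell Ranger 7.2.0 and the mm10 build are named, per the submitters' processing notes. The annotation release, and whether introns counted, was not given in the sources used here.

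The filter kept barcodes of 500 genes or more and up to 15% mitochondrial UMIs, 10785 of 11045 (75950364 UMIs) in aKO and 15651 of 15996 (72270260 UMIs) in aWT. Scrublet, run per library through scanpy 1.11.5 with an expected rate of 0.8% per 1000 barcodes, removed 370 aKO (3.43%) and 787 aWT barcodes (5.03%). Its default rate had called none in aWT. Endothelial-like cells held at least 5 pan-endothelial UMIs and at most 2 of 23 genes of other cell types. Lymphatic-like cells had at least 3 UMIs of Prox1, Mmrn1 and Reln, whatever their UMIs of aerocyte, arterial and venous markers. Of the remaining cells, aerocyte-like cells had at least 8 UMIs of Car4, Ednrb, Fibin, Tbx2 and Apln. Arterial-like cells had at least 3 of Gja5, Bmx, Dkk2 and Fbln2, and venous-like at least 5 of Slc6a2, Selp, Nr2f2, Car8, Vcam1 and Prss23. Where 2 classes other than lymphatic qualified, a 2-fold margin was needed. General capillary-like cells had at least 3 of Gpihbp1, Plvap, Kit, Aplnr, Glp1r and Sema3c and none of the other classes. How the marker UMIs were combined was set after the data had been seen.

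UMIs were summed per class and library and divided by the total (CPM). Log2 ratios, aKO over aWT, were taken after adding 5 CPM, which understates the change of low genes. Medians and lists used features with at least 5 CPM and counts those with at least 50 CPM in 1 library, and higher and lower mean 1.5-fold by size. Shares have exact (Clopper-Pearson) 95% binomial intervals, and ratios conditional exact binomial intervals on the counts without the added CPM, for counting error only. With 1 library per group nothing was tested between groups. The members and lists were chosen with earlier results of these data known. Genes named were the 8 highest and 8 lowest members over all endothelial-like cells, the paralogs and their parents, members with roles of their own, the X-linked members, 3 per class each way from the member median, and up to 4 per other list by size; others are said to be named after their values were seen. Some genes that this rule names are not reported here, though the counts and medians include them. Promoters are from RefSeq, and gene spans from GENCODE M21 on mm10. The steps were checked on simulated counts. Tools were Python 3.11.15, numpy 2.4.6, scipy 1.17.1, pandas 2.3.3 and, for TMM factors, edgeR 4.0.16 in R 4.3.3.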

Additional observations from a re-analysis of the deposited data

Results flagged for a closer look

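For 9 of the members reported here the log2 ratio of aKO over aWT lay below 0 in at least 1 endothelial class and above 0 in another, with the counting interval of both values clear of 0. Chance between animals or libraries is not part of such an interval, and with 1 library per group the difference between classes was not tested. The classes of a library also share its handling and depth.

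For 7 of these the lowest value was in general capillary-like cells. Rps6 had -0.27 there and 0.36 in aerocyte-like cells, and Rpl23a had -0.26 there and 0.19 in aerocyte-like cells. Against arterial-like cells, Rpl5 had -0.22 in general capillary-like and 0.37 in arterial-like cells, Rps15 -0.11 and 0.31, Rpl12 -0.050 and 0.67, Rps16 -0.047 and 0.50, and Rps23 -0.045 and 0.33.

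The other 2 had their lowest value elsewhere. Rps14 had -0.30 in lymphatic-like and 0.23 in aerocyte-like cells, and was also below 0 in general capillary-like (-0.16) and venous-like cells (-0.11). The p53-induced paralog Rps27l had -0.35 in aerocyte-like and 0.34 in venous-like cells. None of these values passed 1.5-fold except that of Rpl12 in arterial-like cells.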

How the results depend on the processing

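No result changed direction under the alternatives run. Of 139 alternative values, 54 stayed within the bounds set and 85 moved beyond them, and the count of members at least 1.5-fold lower stayed at 0 in each. For a median the bound was the counting error of the ratio of summed member UMIs in that class, not an interval of the median itself. For the share difference it was its counting error, and for counts 1.5 times, so small shifts of medians and shares pass the bounds. As given above, the median log2 ratio of the members was 0.68 in all endothelial-like, 0.29 in general capillary-like, 0.52 in aerocyte-like, 0.75 in arterial-like, 0.55 in venous-like and 0.32 in lymphatic-like cells, the share was 2.46 points higher in aKO, and 49 members were higher. Over the alternatives these medians ranged from 0.29 to 0.71, 0.16 to 0.33, 0.37 to 0.60, 0.42 to 0.81, 0.22 to 0.60 and 0.092 to 0.38 in that order of classes. The cause was not tested for any of the moves that follow.

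With TMM factors, the median was 0.62 in all endothelial-like, 0.22 in general capillary-like, 0.41 in aerocyte-like, 0.79 in arterial-like, 0.57 in venous-like and 0.36 in lymphatic-like cells. With totals that left out ribosomal protein and mitochondrial genes, the median was 0.71 in all endothelial-like, 0.29 in general capillary-like, 0.54 in aerocyte-like, 0.81 in arterial-like, 0.60 in venous-like and 0.33 in lymphatic-like cells and the share difference was 2.79 points. As a mean of per-cell CPM, the median was 0.48 in all endothelial-like, 0.17 in general capillary-like, 0.49 in aerocyte-like, 0.81 in arterial-like, 0.51 in venous-like and 0.26 in lymphatic-like cells, the share difference was 1.60 points and 24 members were higher. With cells of at least 1000 genes and at most 10% mitochondrial UMIs, the median was 0.56 in venous-like and 0.33 in lymphatic-like cells and the share difference was 2.47 points. With doublets kept, the median was 0.67 in all endothelial-like, 0.29 in general capillary-like, 0.51 in aerocyte-like, 0.76 in arterial-like, 0.56 in venous-like and 0.38 in lymphatic-like cells. With doubled marker minimums, the median was 0.67 in all endothelial-like, 0.33 in general capillary-like, 0.37 in aerocyte-like, 0.64 in arterial-like, 0.54 in venous-like and 0.30 in lymphatic-like cells and the share difference was 2.47 points. In cells of 3000 to 8000 UMIs, the median was 0.29 in all endothelial-like, 0.21 in general capillary-like, 0.40 in aerocyte-like, 0.63 in arterial-like, 0.26 in venous-like and 0.092 in lymphatic-like cells, the share difference was 0.965 points and 11 members were higher. Without cycling cells, the median was 0.65 in all endothelial-like, 0.51 in aerocyte-like, 0.56 in venous-like and 0.29 in lymphatic-like cells and the share difference was 2.32 points. With a pseudocount of 1 CPM, the median was 0.68 in all endothelial-like and 0.56 in venous-like cells. With no minimum level, the median was 0.66 in all endothelial-like, 0.28 in general capillary-like, 0.51 in aerocyte-like, 0.73 in arterial-like and 0.54 in venous-like cells. With a minimum of 500 CPM, the median was 0.68 in all endothelial-like, 0.32 in general capillary-like, 0.60 in aerocyte-like, 0.77 in arterial-like and 0.34 in lymphatic-like cells. With equal class weights, the median was 0.53 in all endothelial-like cells, the share difference was 2.16 points and 32 members were higher.

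The next settings were chosen after seeing the data. In cells with 20 to 30% long-gene UMIs, the median was 0.36 in all endothelial-like, 0.16 in general capillary-like, 0.46 in aerocyte-like, 0.42 in arterial-like, 0.22 in venous-like and 0.26 in lymphatic-like cells, the share difference was 1.297 points and 15 members were higher. Without Gm42418 and AY036118 in the total, the median was 0.66 in all endothelial-like, 0.27 in general capillary-like, 0.51 in aerocyte-like, 0.73 in arterial-like, 0.54 in venous-like and 0.30 in lymphatic-like cells and the share difference was 2.42 points. As the ratio of summed member UMIs, the log2 ratio was 0.66 in all endothelial-like, 0.31 in general capillary-like, 0.56 in aerocyte-like and 0.58 in venous-like cells. With cells of no class or 2 classes put back, the share difference was 2.50 points.

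TMM moved the median of all features by -0.11 on the log2 scale in aerocyte-like cells and by less than 0.1 either way in the others. TMM gives no share, equal class weights and cells put back give values for all endothelial-like cells alone, and the ratio of summed UMIs gives no count of members. Leaving out a replicate was not possible with 1 library per group. No paired analysis was possible because each group had 1 library. Counting error is small for the measured members over all endothelial-like cells, where each had at least 1000 UMIs over both libraries. It can be larger within a class. Rpl7l1 had 126 UMIs in aWT lymphatic-like cells, with a log2 ratio of 0.10 (-0.17 to 0.40). Depth per cell also differed between the libraries. Sex, library, sequencing depth and group cannot be told apart.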

Other observations

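Cells outside the 5 classes carried the members too. The 963 aKO and 855 aWT endothelial-like cells with too few marker UMIs for a class held 4.50% and 2.40% of UMIs in ribosomal protein genes, at median depths of 1572 and 1444 UMIs. Their cell medians were closer, at 1.73% in aKO and 1.19% in aWT. Long genes held 28.0% of their UMIs in aKO and 36.0% in aWT, and blood markers summed to 1086 CPM in aKO and 66.2 CPM in aWT, whose part in the difference was not tested. The 292 aKO and 161 aWT cells that met the markers of 2 classes held 9.12% and 7.48%. Sorted cells that were not endothelial-like, 280 in aKO and 555 in aWT, held 8.01% and 5.75%. The cell medians of this last group lay the other way, at 1.79% in aKO and 2.60% in aWT. Its make-up differed too, with alveolar markers at 27782 CPM in aKO and 72178 CPM in aWT, airway markers at 753 and 18285 CPM and immune markers at 2261 and 8517 CPM, aKO first.

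Within each library, cells with few UMIs from genes spanning at least 100 kb held far more ribosomal protein UMIs than cells with many. In aKO the median log2 ratio of the 77 members, in cells under 25% against cells of 30% or more long-gene UMIs, was 1.57 in general capillary-like, 1.20 in aerocyte-like, 1.68 in arterial-like, 1.77 in venous-like and 1.396 in lymphatic-like cells. In aWT it was 1.22, 1.02, 1.46, 1.41 and 1.58 in the same order of classes. These differences between cells of 1 library are larger than the median difference between the libraries in each class. In aKO general capillary-like cells the members ran from 0.74 for Rpl7l1 to 1.89 for Rps4x. All shares are parts of a whole, so UMIs of 1 kind lower the share of another.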
